A study of Mus musculus with 11 samples.

Results

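The comparison described here sets the apex of mouse hearts irradiated with protons at a standard dose rate (S-PRT) against unirradiated apex (NR). Its members are 8 of the 11 bulk RNA-seq libraries of the study, namely those whose titles name NR or S-PRT, with 4 in each group. The other 3 libraries received protons at an ultra-high dose rate (F-PRT) and entered no result below except where stated. All mice were C57BL/6, an inbred laboratory strain, and no transgene or mutation is named. S-PRT hearts received a single focal dose of 40 Gy to the apex and were collected 2 weeks later, whereas NR hearts were not treated. The sources used here give no age or sex, although transcripts of the Y-linked genes Ddx3y and Kdm5d were present in all 8 libraries. No label ties each library to its own mouse. The p-values below therefore reflect only how far these libraries scatter, which may be technical.

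The heart muscle is fed by a dense capillary bed, whose endothelial cells pass fatty acids, oxygen and glycerol to the cardiomyocytes and are held in a quiescent state by receptor tyrosine kinases. Resident macrophages clear debris, while monocytes that carry the receptor Ccr2 enter from blood along gradients of CC chemokines. Cardiomyocytes rarely divide, burn mostly fatty acids and answer mechanical load with natriuretic peptides and ankyrin repeat proteins. High doses of radiation to the heart are known to damage microvessels and to be followed by inflammation and fibrosis.

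Levels are given as CPM, the counts of a gene scaled to a common library total, after TMM scaling, and differences as log2 fold changes of S-PRT over NR ± SE from edgeR's quasi-likelihood test, with Benjamini-Hochberg adjusted p over all 14069 genes tested. A gene "rose" or "fell" where the adjusted p was under 0.05. Of the genes tested, 334 rose (2.37%) and 223 fell (1.59%), and 131 and 31 of these changed at least 2-fold. With library size in place of TMM the split was 54 higher (0.384%) and 80 lower (0.569%), and with log2(TPM + 1) it was 18 (0.128%) and 26 (0.185%), and the median gene lay at -0.14 on either scale. The titles number the libraries 1 to 4 in both groups, and a second fit with that number as a block (the paired fit below) called 903 higher (6.42%) and 468 lower (3.33%), among them 332 of the 334 and 221 of the 223. No label says what a number shares. Deviations from the group means correlated among libraries 1 and 2 and among 3 and 4, and same numbers were not always closest. The word paired is therefore only a name for this fit, and calls made in it alone rest on a pairing that is not established.

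The 8 libraries held 23655699 to 40136578 expected counts, and mitochondrially encoded transcripts took 30.6% to 43.8% of them in NR and 37.1% to 43.5% in S-PRT. All 8 had abundant cardiomyocyte transcripts, among them Myh6, the adult cardiac myosin heavy chain, with 19927 to 23961 CPM in NR and 18663 to 21844 CPM in S-PRT (its reads were partly shared with other genes). Fold changes depended on transcript length. From the shortest 10% of genes (median 755 bases) to the longest (median 6510 bases) the median log2 fold change went from 0.24 to -0.12. Across genes, Spearman's rho between transcript length and log2 CPM centred on each gene's mean was 0.209, 0.272, 0.191 and 0.289 in NR 1 to 4, and -0.427, -0.345, -0.156 and 0.0889 in S-PRT 1 to 4. The groups did not overlap on this measure, so length and treatment cannot be told apart in these libraries. The genes that rose had a median transcript length of 1065 bases and those that fell one of 3955, against 2515 over all genes tested. With the length trend removed from each library 115 genes rose (0.817%) and 85 fell (0.604%). With the trend removed in the paired fit 577 rose (4.1%) and 272 fell (1.93%).

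**Figure D1:**
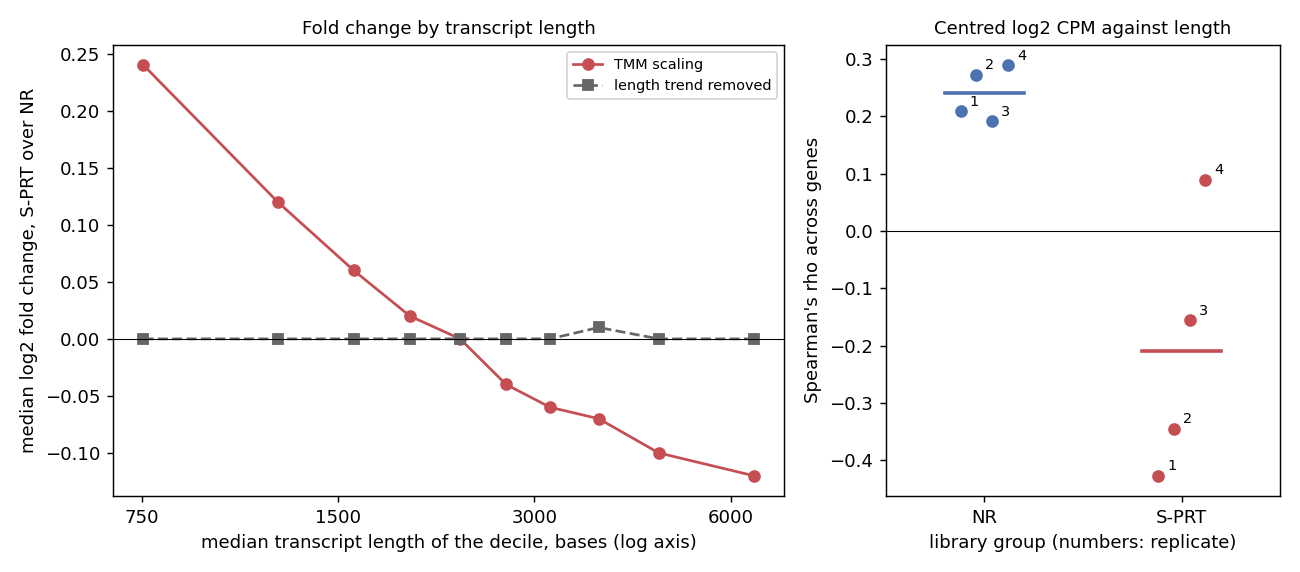
Left, median log2 fold change of S-PRT over NR (y) in 10 equal groups of the tested genes ordered by transcript length in bases (x, log axis), before and after removing the length trend. Right, Spearman's rho across genes between length and centred log2 CPM in each library, with group means as bars. The medians run from 0.24 in the group of shortest genes to -0.12 in the longest, and the 4 S-PRT libraries lie below the 4 NR libraries.

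Several transcripts of the cardiac capillary were lower after S-PRT. In a list of 17 genes of capillary lipid transport 5 fell and 1 rose, with a median log2 fold change of -0.25 against 0.0 over all genes tested. The list was drawn up with earlier results of these data known, so its count is a description only. It includes Car4 and Timp4, which are not lipid transporters. Car4, a carbonic anhydrase on the surface of capillary endothelium, had 5.81, 6.34, 7.86 and 8.73 CPM in NR 1 to 4 and 1.75, 2.4, 1.33 and 1.34 CPM in S-PRT 1 to 4. Every S-PRT library was below every NR library, and the log2 fold change was -2.12 ± 0.21 (adjusted p = 0.0025). Timp4, an inhibitor of matrix metalloproteinases made in the heart, had 14.1, 21, 24.1 and 20.1 CPM in NR and 5.97, 7.99, 2.09 and 3.4 CPM in S-PRT. Its groups did not overlap either (-2.08 ± 0.33, adjusted p = 0.012), and the 2 lowest values were those of S-PRT 3 and 4. Aqp7, a channel for glycerol, had 12.5, 9.38, 11.5 and 15.3 CPM in NR and 3.51, 6.35, 3.54 and 3.87 CPM in S-PRT (-1.52 ± 0.21, adjusted p = 0.0077). The fatty acid binding protein gene Fabp4 and the fatty acid transporter gene Cd36 fell by smaller amounts, at -0.52 ± 0.08 for Fabp4 (adjusted p = 0.013) and at -0.39 ± 0.09 for Cd36 (adjusted p = 0.036). Slc27a3, an acyl-CoA synthetase of the fatty acid transport protein family, was the 1 member that rose, from 0.372 ± 0.169 to 1.18 ± 0.43 CPM (SD, n = 4 each; 1.69 ± 0.37, adjusted p = 0.035). Car4, Timp4 and Aqp7 passed with any 1 of the 8 libraries left out, while the count of members that fell ranged from 3 (without NR 4) to 5. Slc27a3 lost its call without NR 1, NR 2, NR 3, NR 4, S-PRT 3 or S-PRT 4. Without the length trend 4 members fell and 0 rose, with adjusted p of 0.059 for Cd36 and 0.056 for Slc27a3. In the paired fit 6 fell and 1 rose. In bulk tissue, fewer cells of a type and less RNA per cell cannot be told apart.

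Outside that list, Aqp1, the water channel of continuous capillaries, had 174, 159, 206 and 198 CPM in NR and 80.7, 98.3, 47.1 and 55.4 CPM in S-PRT (-1.39 ± 0.2, adjusted p = 0.0093). Rgcc, a regulator of the cell cycle that marks heart capillaries, had 14.4, 11.8, 19.3 and 14.7 CPM in NR and 5.68, 7.95, 5.83 and 6.58 CPM in S-PRT (-1.21 ± 0.16, adjusted p = 0.0061). Neither gene overlapped between the groups, and both kept a log2 fold change under -1 without the length trend (-1.35 and -1.39). Cxcl12, the ligand of Cxcr4 made by stromal and endothelial cells, had the same pattern, with 87.2 to 110 CPM in NR and 38.8 to 44.6 CPM in S-PRT (-1.23 ± 0.09, adjusted p = 0.00044). Igfbp3, a secreted binding protein for insulin-like growth factors, had 12, 10.5, 9.57 and 11.6 CPM in NR and 4.64, 3.53, 5.29 and 4.64 CPM in S-PRT (-1.26 ± 0.13, adjusted p = 0.0025).

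Of 23 genes of endothelial identity, 5 fell and 0 rose (10 and 0 in the paired fit), with a median of -0.24. All 5 encode receptor-type membrane proteins. Tek, the angiopoietin receptor, had 30.7, 26.1, 35.5 and 39.0 CPM in NR and 15.4, 20, 15.8 and 16.0 CPM in S-PRT (-0.97 ± 0.13, adjusted p = 0.0065). Flt1, which binds vascular endothelial growth factor, had 49.4 to 62.6 CPM in NR and 26.2 to 36.9 CPM in S-PRT (-0.94 ± 0.11, adjusted p = 0.0042). Kdr, the main signalling receptor of that growth factor, had 76.9, 87.9, 104 and 140 CPM in NR and 52.2, 66.2, 59.7 and 65.4 CPM in S-PRT (-0.75 ± 0.16, adjusted p = 0.034). Tie1, the orphan partner of Tek, fell by 0.84 ± 0.15 on the log2 scale (adjusted p = 0.017), and the phosphatase Ptprb by 0.66 ± 0.07 (adjusted p = 0.0025). In 10 of the 23, these 5 among them, every S-PRT library was below every NR library, against 7.07% of all genes tested. Tek, Flt1 and Ptprb passed with any 1 library left out, and the list count was 3 without S-PRT 3. These transcripts are long, and without the length trend the log2 fold changes were -0.87 for Tek, -0.81 for Flt1, -0.74 for Tie1, -0.63 for Kdr (adjusted p = 0.09) and -0.53 for Ptprb.

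Other endothelial markers did not pass without the block. Pecam1, the adhesion molecule of all endothelial cells, had 67.0, 64.3, 86.7 and 91.9 CPM in NR and 54.0, 64.0, 94.5 and 100 CPM in S-PRT. The groups overlapped throughout, with a log2 fold change of 0.02 ± 0.19 (adjusted p = 0.97). Replicates 3 and 4 were above replicates 1 and 2 in both groups. The same order of replicates was seen for Cdh5, the endothelial cadherin, with 82.0, 76.1, 116 and 131 CPM in NR and 49.7, 65.1, 74.9 and 87.5 CPM in S-PRT. Cdh5 did not pass without the block (-0.55 ± 0.2, adjusted p = 0.13) and passed in the paired fit (-0.54, adjusted p = 0.0059). The sphingosine phosphate receptor S1pr1 and the transcription factors Sox17 and Sox18 likewise passed in the paired fit only, with log2 fold changes of -0.7, -0.57 and -0.54 there and adjusted p of 0.0021, 0.033 and 0.0087.

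**Figure D2:**
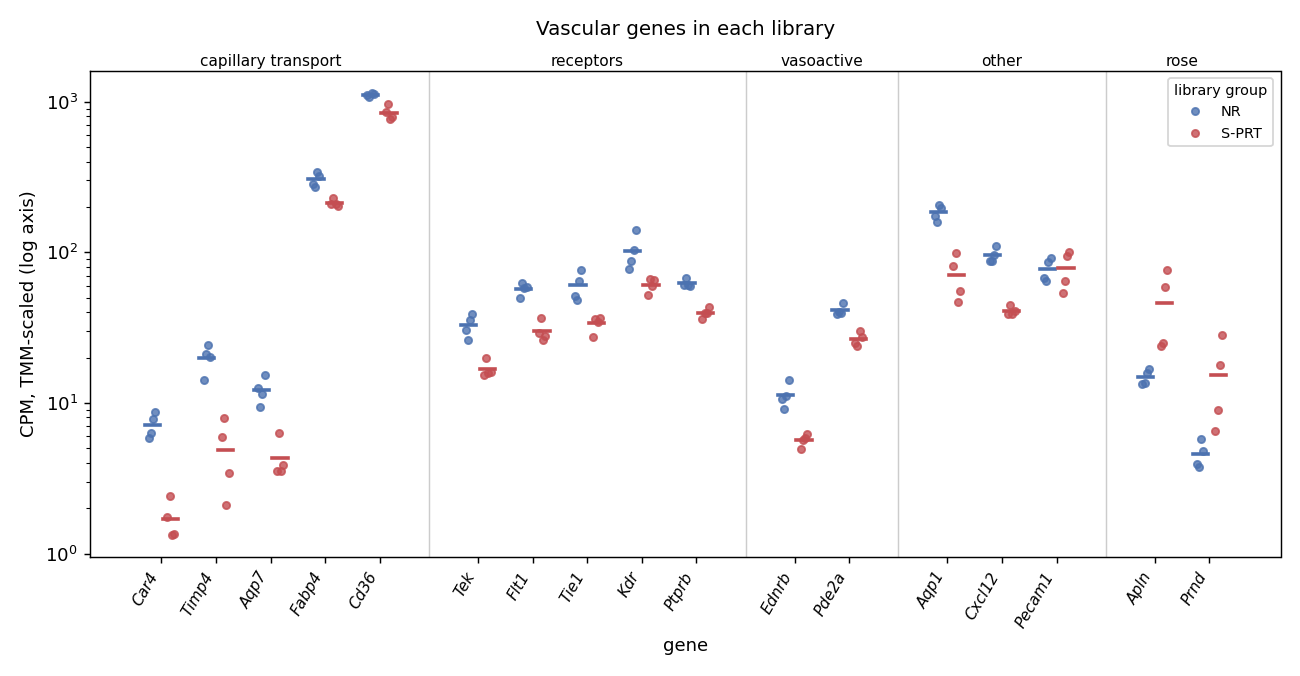
CPM after TMM scaling (y, log axis) of vascular genes (x) in the 4 NR and 4 S-PRT libraries, with each library as a point and group means as bars. Car4, Timp4, Aqp7, Aqp1, Cxcl12 and the 5 receptor genes lie lower in every S-PRT library, Pecam1 overlaps, and Apln and Prnd lie higher, most of all in 2 of the S-PRT libraries.

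Among 16 genes of endothelin, nitric oxide and cyclic GMP signalling 4 fell and 0 rose (6 and 0 in the paired fit), with a median of -0.21. Ednrb, the endothelin B receptor, had 10.6, 9.13, 11.1 and 14.1 CPM in NR and 4.93, 5.64, 5.86 and 6.23 CPM in S-PRT (-0.99 ± 0.14, adjusted p = 0.0085). Pde2a, a phosphodiesterase that cyclic GMP stimulates, had 39.2 to 46.2 CPM in NR and 23.8 to 30.1 CPM in S-PRT (-0.63 ± 0.09, adjusted p = 0.0081). Npr3, the clearance receptor for natriuretic peptides, had 12.9, 10.1, 7.14 and 10 CPM in NR and 7.98, 4.33, 4.17 and 4.31 CPM in S-PRT (-0.96 ± 0.23, adjusted p = 0.049). Its groups overlapped, because S-PRT 1 was above NR 3. Ece1, which processes endothelin precursors, changed by -0.44 ± 0.1 (adjusted p = 0.043). On log2(TPM + 1) with TMM factors, a scaling chosen after seeing the data, it lay at 0.14, so its direction depended on the unit. The list count was 2 without NR 1, NR 3, NR 4, S-PRT 2 or S-PRT 3. It was also 2 without the length trend, with adjusted p of 0.12 for Npr3 and 0.084 for Ece1. The soluble guanylate cyclase subunits Gucy1a1 and Gucy1b1 passed in the paired fit only (-0.62 with adjusted p = 0.0083, and -0.6 with adjusted p = 0.043).

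Of 22 genes of the VEGF, angiopoietin, apelin and adrenomedullin pathways 4 fell, all named above, and 1 rose (7 and 1 in the paired fit). Without S-PRT 3 the lower count was 2. Apln, the apelin peptide of sprouting endothelial tip cells, had 13.4, 13.5, 15.7 and 16.7 CPM in NR and 24.0, 25, 59.2 and 76.4 CPM in S-PRT. Every S-PRT library was above NR, and S-PRT 3 and 4 were more than 2-fold above S-PRT 1 and 2. The log2 fold change was 1.64 ± 0.34 (adjusted p = 0.029, and 0.0041 in the paired fit). Its receptor Aplnr had 18.7 to 29.2 CPM in NR and 14.3 to 17.4 CPM in S-PRT (-0.51 ± 0.14, adjusted p = 0.063, and 0.025 in the paired fit). Prnd, the prion-like protein doppel of angiogenic endothelium, had 3.92, 3.78, 5.8 and 4.79 CPM in NR and 6.47, 8.98, 17.8 and 28.2 CPM in S-PRT (1.76 ± 0.4, adjusted p = 0.038). Vegfa, the growth factor itself, had 131 to 164 CPM in NR and 134 to 142 CPM in S-PRT (-0.11 ± 0.07, adjusted p = 0.39). Apln and Prnd each lost the call in 5 of the 8 fits with 1 library left out, with adjusted p up to 0.086 and 0.11. In the VEGF list 3 members fell and 1 rose without the length trend, and Prnd had an adjusted p of 0.054.

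Arterial and guidance genes made up a smaller set. The share of all genes tested was 2.37% higher and 1.59% lower (6.42% and 3.33% in the paired fit). Efnb2, the ephrin of arterial endothelium, had 11.3 to 15.9 CPM in NR and 6.72 to 8.22 CPM in S-PRT (-0.82 ± 0.12, adjusted p = 0.0093). With Efnb1 (-0.5 ± 0.11, adjusted p = 0.035) and Sema6a (-0.71 ± 0.15, adjusted p = 0.031) it was 1 of the 3 guidance genes that fell among 44 tested, of which 0 rose. The guidance count was 1 without NR 2, NR 3, NR 4 or S-PRT 3, and 1 without the length trend (adjusted p of 0.063 for Efnb1 and 0.11 for Sema6a). In the paired fit 2 guidance genes rose, no more than the share of all genes, and 8 fell. Of 16 Notch genes 0 changed (1 rose and 4 fell in the paired fit). Notch1, whose reads were partly shared with other genes in all 8 libraries, had 19.7 to 21.8 CPM in NR and 11.1 to 17.8 CPM in S-PRT (-0.56 ± 0.14, adjusted p = 0.052). Its arterial ligand Dll4 changed by -0.43 in the paired fit (adjusted p = 0.022). In the clotting list of 19 genes 1 rose and 1 fell (4 and 2 in the paired fit). Given the shares of all genes, 1 call in a list of this size says little about the list. Plaur, the urokinase receptor, rose from 0.858 ± 0.141 to 2.69 ± 0.966 CPM (SD, n = 4 each; 1.66 ± 0.28, adjusted p = 0.014). Thbd, the endothelial thrombin receptor thrombomodulin, stood at the threshold (-0.66 ± 0.16, adjusted p = 0.0501, and 0.0034 in the paired fit). Of 20 smooth muscle and pericyte genes 0 rose and 1 fell (2 and 3 in the paired fit). It was Rgs5, a G protein regulator of pericytes (276 ± 33.5 to 196 ± 16.8 CPM, SD, n = 4 each; -0.49 ± 0.1, adjusted p = 0.025). Rgs5 lost its call without any 1 library but NR 2, S-PRT 2 or S-PRT 4, and without the length trend (adjusted p = 0.06).

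Transcripts of monocytes and activated macrophages were higher after S-PRT. Of 11 tested markers of recruited monocytes and activated macrophages 4 rose and 0 fell, with a median of 1.02 (5 and 0 in the paired fit). Of 12 resident macrophage markers 0 rose and 1 fell, with a median of 0.09, while 3 rose and 2 fell in the paired fit. Shares of all genes tested were 2.37% higher and 1.59% lower (6.42% and 3.33% in the paired fit). Ccr2, the receptor by which monocytes follow Ccl2, had 2.14, 1.28, 2.11 and 1.89 CPM in NR and 5.97, 6.63, 12.6 and 12 CPM in S-PRT (2.33 ± 0.27, adjusted p = 0.0039). Lgals3, the galectin of activated macrophages, had 0.989, 0.806, 1.65 and 1.48 CPM in NR and 4.26, 2.35, 7.8 and 6.07 CPM in S-PRT (2.04 ± 0.35, adjusted p = 0.015). Ms4a7, a membrane protein of monocyte-derived macrophages, had 0.696 to 1.35 CPM in NR and 2.46 to 5.26 CPM in S-PRT (1.95 ± 0.3, adjusted p = 0.011). S100a4, a calcium-binding protein of motile cells, was the fourth (1.3 ± 0.22, adjusted p = 0.015). In Ccr2, Lgals3 and Ms4a7 the groups did not overlap, and S-PRT 3 and 4 were above S-PRT 1 and 2. Of these markers 3 rose without the length trend, and S100a4 had an adjusted p of 0.076. Without NR 1 the list count was 2, and in each of the other 7 fits with 1 library left out it was 4.

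The resident macrophage marker that fell was Cd163, a receptor for haemoglobin bound to haptoglobin. It had 11.6, 10.3, 14.7 and 14.8 CPM in NR and 4.72, 6.25, 3.69 and 3.61 CPM in S-PRT, with no overlap (-1.52 ± 0.19, adjusted p = 0.0051). Timd4, a phosphatidylserine receptor of long-lived resident macrophages, had 1.38, 0.953, 1.28 and 1.76 CPM in NR and 0.877, 0.705, 0.272 and 0.328 CPM in S-PRT. Its groups did not overlap, and it passed in the paired fit only (-1.44, adjusted p = 0.045, against 0.064 without the block). In both genes S-PRT 3 and 4, the libraries with most Ccr2, had the lowest values. The 3 resident markers that rose in the paired fit were Cbr2 (0.49, adjusted p = 0.025), Gas6 (0.47, adjusted p = 0.026) and Maf (0.46, adjusted p = 0.032).

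Of 29 chemokine and receptor genes tested 8 rose and 1, Cxcl12, fell (12 and 1 in the paired fit). The median was 0.43. Besides Ccr2 and the genes below the 8 include Cxcl10, an interferon target that also stands in the interferon list (3.1, adjusted p = 0.032, and 0.063 without the length trend). Ccl2, the main ligand of Ccr2, had 0.712, 1.17, 0.957 and 1.0 CPM in NR and 2.8, 1.79, 6.62 and 4.24 CPM in S-PRT (2.02 ± 0.36, adjusted p = 0.018). Ccl7, another ligand of Ccr2, had 0.672, 0.696, 1.02 and 1.18 CPM in NR and 2.34, 1.41, 4.99 and 3.42 CPM in S-PRT (1.76 ± 0.36, adjusted p = 0.029). In the RefSeq mouse annotation Ccl2, Ccl7, Ccl11, Ccl12 and Ccl8 follow each other in this order on chromosome 11. Of these neighbours Ccl12 (2.55 ± 0.52, adjusted p = 0.028) and Ccl8 (3.27 ± 0.61, adjusted p = 0.02) rose as well. Ccl11, the eosinophil chemokine between them, had 1.72 to 3.05 CPM in NR and 0.586 to 1.93 CPM in S-PRT (-0.69 ± 0.33, adjusted p = 0.23). Ccl8 had 0.0733 to 0.277 CPM in NR and Ccl12 had 0.0733 to 0.493 CPM there. As 1 count is worth 0.022 to 0.047 CPM in the 8 libraries, both fold changes rest on few reads. Ccl9 and Ccl6, a second pair of neighbours on that chromosome, rose by 1.19 ± 0.21 (adjusted p = 0.017) and 0.91 ± 0.22 (adjusted p = 0.0497). With 1 library left out the count of risen chemokine genes was 1 without NR 1 or NR 4, 3 without S-PRT 3, 4 without NR 2 or NR 3, and 7 or 8 in the other 3 fits. Without the length trend 3 rose, and Ccl7, Ccl12, Ccl8 and Ccl6 had adjusted p of 0.075, 0.077, 0.054 and 0.12.

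**Figure D3:**
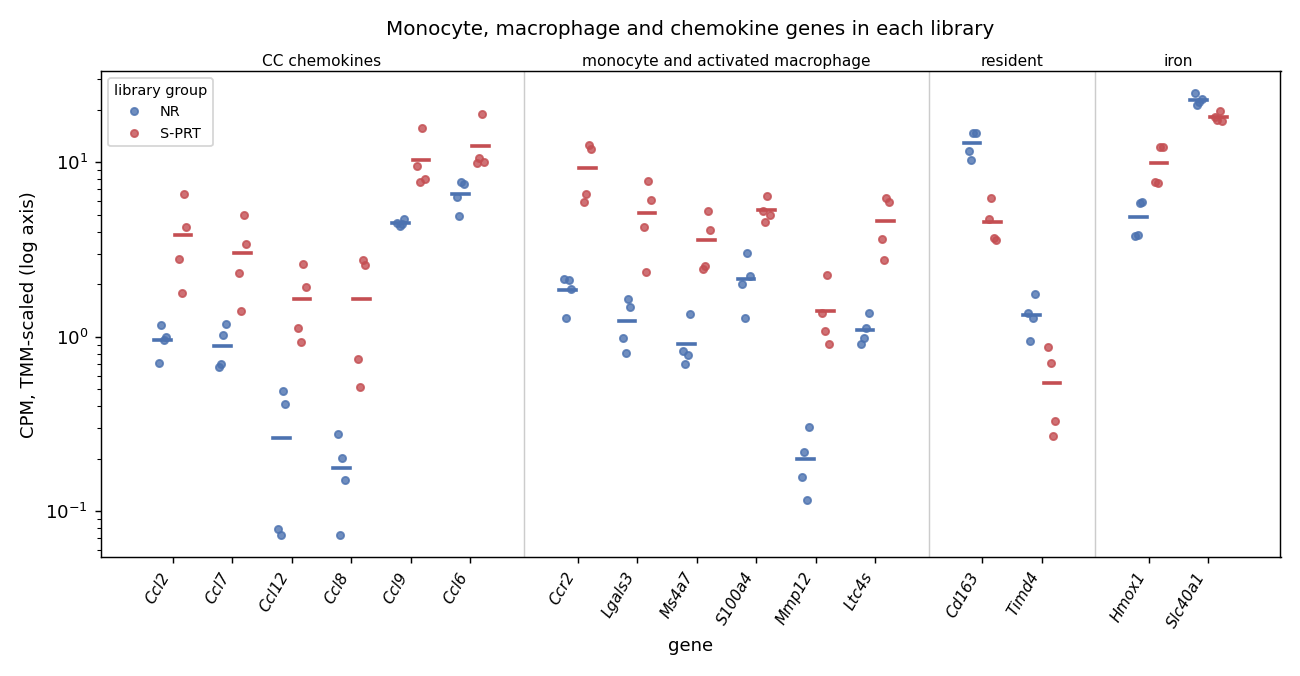
CPM after TMM scaling (y, log axis) of chemokine, monocyte, macrophage and iron genes (x) in the 4 NR and 4 S-PRT libraries, with each library as a point and group means as bars. Ccr2 lies between 5.97 and 12.6 CPM in S-PRT against 1.28 to 2.14 CPM in NR, and Cd163 lies between 3.61 and 6.25 CPM against 10.3 to 14.8 CPM.

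Some genes of effector functions known from such cells rose, although bulk libraries do not show which cells held the transcripts. Ltc4s, the leukotriene C4 synthase, had 0.91, 0.99, 1.13 and 1.37 CPM in NR and 3.63, 2.77, 6.26 and 5.9 CPM in S-PRT (2.07 ± 0.27, adjusted p = 0.0065). Mmp12, the macrophage elastase, had 0.116 to 0.305 CPM in NR and 0.914 to 2.27 CPM in S-PRT (2.75 ± 0.4, adjusted p = 0.0093). Il1b, the interleukin 1 beta cytokine, had 0.174 to 0.327 CPM in NR and 0.71 to 1.66 CPM in S-PRT (2.15 ± 0.37, adjusted p = 0.015), and Pycard, the adaptor of the inflammasome, rose by 0.74 ± 0.13 (adjusted p = 0.017). These were the 2 that rose among 21 genes of Toll-like receptors and the inflammasome, of which 6 rose in the paired fit. The count was 1 without the length trend, and Pycard had an adjusted p of 0.052. The signalling adaptors Fcer1g (1.2 ± 0.25, adjusted p = 0.03) and Tyrobp (1.07 ± 0.21, adjusted p = 0.026) rose among 23 phagocytic and Fc receptor genes, of which 0 fell (11 rose and 2 fell in the paired fit). Both transcripts are short, and without the length trend their adjusted p was 0.11 and 0.13. The phagocytic count was 0 without NR 1, NR 2, NR 4 or S-PRT 3 and 1 without NR 3, and the Toll-like count was 0 without S-PRT 3 and 1 without NR 4.

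Of 20 complement genes 0 rose and 1 fell without the block, and 7 rose and 1 fell in the paired fit. By comparison 1.59% of all genes tested fell without the block, and 6.42% rose and 3.33% fell in the paired fit. C1qb, a chain of the recognition molecule C1q, had 20.6, 17, 30.5 and 29.3 CPM in NR and 37.4, 35.0, 79.6 and 54.3 CPM in S-PRT. All S-PRT libraries were above NR, and the adjusted p was 0.0501 without the block and 0.00048 in the paired fit (1.05). Cfb, factor B of the alternative pathway, had 0.257 to 1.46 CPM in NR and 0.794 to 10 CPM in S-PRT (2.72 in the paired fit, adjusted p = 0.0003). The lower count without the block was 1 without NR 2 and 0 without any other 1 library.

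Markers of other leukocytes were few. Of 4 tested neutrophil markers 0 passed without the block, and S100a8 and S100a9 passed in the paired fit (1.55 and 1.53, adjusted p = 0.01 and 0.043), with levels up to 2.68 and 4.35 CPM in S-PRT. The summed level of the neutrophil list was 3.01 to 4.44 CPM in NR and 3.97 to 11.3 CPM in S-PRT. T cell markers summed to 5.64 to 6.7 CPM in NR and 3.72 to 11.1 CPM in S-PRT, with 0 of 3 tested members changed. B cell markers summed to 13.2 to 19.8 and 10.2 to 15.9 CPM, with 0 of 11 changed (1 fell in the paired fit). Thymus, lung and liver markers had 0 tested members of 10. The part of any of these cells in the results above was not tested.

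Some cytoskeletal and calcium-binding genes of motile cells rose, a result that moved with transcript length. Of 24 genes of the motile actin cytoskeleton 6 rose and 0 fell (median 0.38, 16 and 0 in the paired fit). Tmsb4x, thymosin beta 4, which binds actin monomers, had 143, 131, 155 and 146 CPM in NR and 213, 207, 305 and 235 CPM in S-PRT (0.74 ± 0.12, adjusted p = 0.012). Its relative Tmsb10 had 18.1 to 27.2 CPM in NR and 36.1 to 56.8 CPM in S-PRT (1.03 ± 0.16, adjusted p = 0.011). Capg, which caps actin filaments in macrophages, rose by 1.04 ± 0.23 (adjusted p = 0.036). Of 20 S100 proteins and annexins 5 rose and 0 fell (11 and 0 in the paired fit), among them S100a11 (1.03 ± 0.17, adjusted p = 0.013), S100a6 (0.92 ± 0.15, adjusted p = 0.014) and S100a10 (0.62 ± 0.13, adjusted p = 0.03). These short transcripts moved with the length trend. Without it 0 members of either list passed, with 0.53 for Tmsb4x (adjusted p = 0.084), 0.76 for Tmsb10 (adjusted p = 0.082) and 0.73 for S100a11 (adjusted p = 0.1), and with adjusted p of 0.079 for Capg, 0.078 for S100a6 and 0.23 for S100a10. With the trend removed in the paired fit 11 members of the actin list and 6 of the S100 list passed. The count for the S100 list was 1 without NR 1, 3 without NR 3, NR 4 or S-PRT 3, and 9 without S-PRT 4.

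Cell division genes were higher after S-PRT, at low levels. Of 33 tested mitosis genes 12 rose and 0 fell, with a median of 1.33 (22 and 0 in the paired fit), and in 18 of the 33 every S-PRT library was above every NR library (7.36% of all genes tested). On log2(TPM + 1) 0 of the 33 passed, and the median was 0.24. Adding 1 shrinks the fold changes of genes at low TPM. Mki67 had a mean TPM of 0.208 in NR and 0.53 in S-PRT, and Ccnb1 one of 0.167 and 0.51. On log2(TPM + 1) their log2 fold changes were 0.33 and 0.36. How far this lowered the count was not tested. Promoters of mitosis genes often carry a CCAAT box, bound by the factor NF-Y, near a cell cycle homology region, TTTGAA, bound by the DREAM complex that represses these genes outside the cell cycle. Of the 12 genes that rose 10 had an entry in the RefSeq promoter table. Of these 9 held CCAAT and 6 held TTTGAA, on either strand, within 150 bases before the start, and 6 held both. Of all 27025 genes there, 27.7% held CCAAT, 10.5% held TTTGAA and 2.63% held both. Of the 21 tested mitosis genes that did not pass 19 had an entry, and 2 of these held both motifs. That split moves with the fit, since 22 of the 33 rose in the paired fit. The 2 sets therefore do not stand for genes that responded and genes that did not. Because mitosis genes often carry these motifs, a higher share than among all genes comes with the list. A match is a description of letters and not of binding. The 4 promoters below belong to genes that rose and held both motifs, taken in order of the paired fit's adjusted p. They run 5′ to 3′ on the gene's strand and end at the last base before the start. Capitals mark CCAAT or its reverse complement ATTGG and TTTGAA or its reverse complement TTCAAA, and all 4 are on the minus strand of GRCm38.p6, at chr7:135716380-135716529 for Mki67, chr11:99024190-99024339 for Top2a, chr4:118437344-118437493 for Cdc20 and chr10:69352913-69353062 for Cdk1.
Mki67: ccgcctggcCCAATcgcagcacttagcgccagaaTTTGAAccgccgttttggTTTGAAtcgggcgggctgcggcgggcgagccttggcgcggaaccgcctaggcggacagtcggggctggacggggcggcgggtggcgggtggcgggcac
Top2a: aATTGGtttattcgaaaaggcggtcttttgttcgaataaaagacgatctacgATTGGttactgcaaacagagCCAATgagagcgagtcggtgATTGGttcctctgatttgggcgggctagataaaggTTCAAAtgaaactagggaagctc
Cdc20: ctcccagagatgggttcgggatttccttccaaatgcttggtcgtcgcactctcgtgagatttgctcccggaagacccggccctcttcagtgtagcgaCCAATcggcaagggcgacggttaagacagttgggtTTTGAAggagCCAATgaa
Cdk1: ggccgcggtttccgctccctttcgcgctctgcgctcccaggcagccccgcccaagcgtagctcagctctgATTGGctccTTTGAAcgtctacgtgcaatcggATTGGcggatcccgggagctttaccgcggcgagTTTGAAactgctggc

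Of these, Mki67, the proliferation marker of the chromosome surface, had 1.5, 1.14, 2.76 and 2.7 CPM in NR and 3.77, 3.57, 6.95 and 7.82 CPM in S-PRT. Replicates 3 and 4 were above 1 and 2 in both groups, and the log2 fold change was 1.44 ± 0.33 (adjusted p = 0.041, and 0.00048 in the paired fit). Top2a, which untangles replicated DNA, had 1.15, 0.403, 2.18 and 1.59 CPM in NR and 2.92, 3.29, 6.17 and 5.86 CPM in S-PRT (1.76 ± 0.4, adjusted p = 0.039). Cdk1, the kinase that starts mitosis, had 0.356, 0.44, 0.667 and 0.675 CPM in NR and 1.17, 1.08, 2.6 and 1.66 CPM in S-PRT (1.59 ± 0.34, adjusted p = 0.031). Its partner cyclin Ccnb1 (2.2 ± 0.42, adjusted p = 0.021), the activator of the anaphase ligase Cdc20 (1.67 ± 0.32, adjusted p = 0.022), Tpx2, a factor of spindle assembly (1.82 ± 0.38, adjusted p = 0.03) and Birc5, a subunit of the chromosomal passenger complex (1.84 ± 0.4, adjusted p = 0.034), had no overlap between groups either. Ccnb1 and Birc5 had means of 0.25 and 0.29 CPM in NR. As 1 count is worth 0.022 to 0.047 CPM in the 8 libraries, these fold changes rest on few reads. The count of risen mitosis genes depended on single libraries. It was 0 without NR 4 or S-PRT 3, 1 without NR 1, 4 without NR 3, 5 without NR 2 or S-PRT 4, 12 without S-PRT 2 and 17 without S-PRT 1. Without the length trend 5 rose, and Mki67, Top2a, Cdk1 and Birc5 had adjusted p of 0.056, 0.051, 0.078 and 0.071. With the trend removed in the paired fit 20 rose.

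Of 31 DNA replication genes 3 rose and 0 fell (11 and 0 in the paired fit). The 3 were the helicase subunit Mcm5, with 1.58, 1.72, 2.73 and 2.66 CPM in NR and 3.68, 3.86, 5.92 and 7.1 CPM in S-PRT (1.24 ± 0.26, adjusted p = 0.029), the initiation factor Mcm10 (1.88 ± 0.38, adjusted p = 0.027) and Uhrf1, which maintains DNA methylation (1.69 ± 0.34, adjusted p = 0.028). Mcm10 had a mean of 0.159 CPM in NR, so its fold change rests on few reads. The replication count was 0 without NR 2 or S-PRT 3, 1 without NR 1 or NR 4, and 5 without S-PRT 1 or S-PRT 2. Of 14 tested replication-dependent histone genes 3 rose (4 in the paired fit, and 1 without the length trend). Hist1h2ap rose from 1.27 ± 0.453 to 5.99 ± 1.41 CPM (SD, n = 4 each; 2.23 ± 0.25, adjusted p = 0.0031), with reads shared with other genes in all 8 libraries. Among the p53 response genes, 11 of 31 rose (15 in the paired fit), led by the inhibitor Cdkn1a with 4.94 to 10.8 CPM in NR and 24.7 to 68.6 CPM in S-PRT (2.52 ± 0.37, adjusted p = 0.0093). The related inhibitor Cdkn1c went the other way, with 16.8, 15.6, 18.1 and 17.6 CPM in NR and 8.26, 8.6, 3.51 and 4.08 CPM in S-PRT (-1.51 ± 0.25, adjusted p = 0.014). Interferon response genes rose in 14 of 41 cases (32 in the paired fit, and 9 without the length trend), a count that was 5 without NR 1 or S-PRT 3, 6 without NR 4 and 7 without NR 2.

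Contractile genes of cardiomyocytes did not pass, while a few stress, channel and fuel genes did. Of 26 sarcomere and Z-disc genes 0 changed, with a median of 0.03 (1 rose in the paired fit), and of 18 calcium cycling genes 0 changed, with a median of -0.09 (1 rose and 1 fell). Myh6 changed by -0.07 ± 0.13 (adjusted p = 0.79), the calcium pump gene Atp2a2 by -0.19 ± 0.11 (adjusted p = 0.35) and the calcium release channel gene Ryr2 by -0.11 ± 0.14 (adjusted p = 0.67). Of 16 genes of natriuretic peptides and cardiomyocyte stress 3 rose and 0 fell (median 0.6), with 6 and 0 in the paired fit. Ankrd1, an ankyrin repeat protein of the sarcomere that responds to stretch, had 671, 865, 1007 and 939 CPM in NR and 1532, 1309, 2420 and 1968 CPM in S-PRT (1.05 ± 0.19, adjusted p = 0.018). Nppb, brain natriuretic peptide, had 73.6 to 112 CPM in NR and 136 to 182 CPM in S-PRT (0.89 ± 0.14, adjusted p = 0.011). Ankrd23 was the third (0.46 ± 0.11, adjusted p = 0.041, and 0.071 without the length trend). Nppa, atrial natriuretic peptide, had 64.8, 77.7, 60.3 and 46.8 CPM in NR and 75.9, 23.3, 180 and 143 CPM in S-PRT, and was not called (0.77 ± 0.46, adjusted p = 0.34). S-PRT 2 lay below all NR libraries for Nppa, while S-PRT 3 and 4 lay above them. The stress count was 1 without NR 1 and 5 without S-PRT 2 or S-PRT 4.

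Of 32 channel and connexin genes 1 rose and 2 fell (1 and 4 in the paired fit, and 1 and 0 without the length trend). Over all genes tested 2.37% rose and 1.59% fell (6.42% and 3.33% in the paired fit), so the count that rose is near that share. Kcna5, the channel of an early repolarizing current, had 10.6, 8.98, 15.1 and 12.2 CPM in NR and 4.22, 6.96, 7.31 and 7.26 CPM in S-PRT (-0.86 ± 0.19, adjusted p = 0.039), and Kcnv2, a modifier of potassium channels, fell by 0.67 ± 0.14 (adjusted p = 0.03). The lower count was 0 without NR 1, NR 3, NR 4 or S-PRT 3 and 1 without S-PRT 1 or S-PRT 2. Of 29 genes of adrenergic and G protein signalling 1 rose and 2 fell (1 and 6 in the paired fit), and of 9 genes of renin, angiotensin and aldosterone 0 rose and 2 fell (0 and 3). The alpha 1A adrenergic receptor gene Adra1a changed by -0.41 ± 0.09 (adjusted p = 0.032), the angiotensin receptor gene Agtr1a by -0.37 ± 0.08 (adjusted p = 0.031) and the mineralocorticoid receptor gene Nr3c2 by -0.6 ± 0.11 (adjusted p = 0.019). These calls were kept in 2, 1 and 6 of the 8 fits with 1 library left out. Every S-PRT library was below every NR library in 5 of the 29 and in 2 of the 9 genes, against 7.07% of all genes tested. With the length trend removed, Kcna5, Kcnv2 and Adra1a had adjusted p of 0.063, 0.098 and 0.099, and Agtr1a and Nr3c2 passed.

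**Figure D4:**
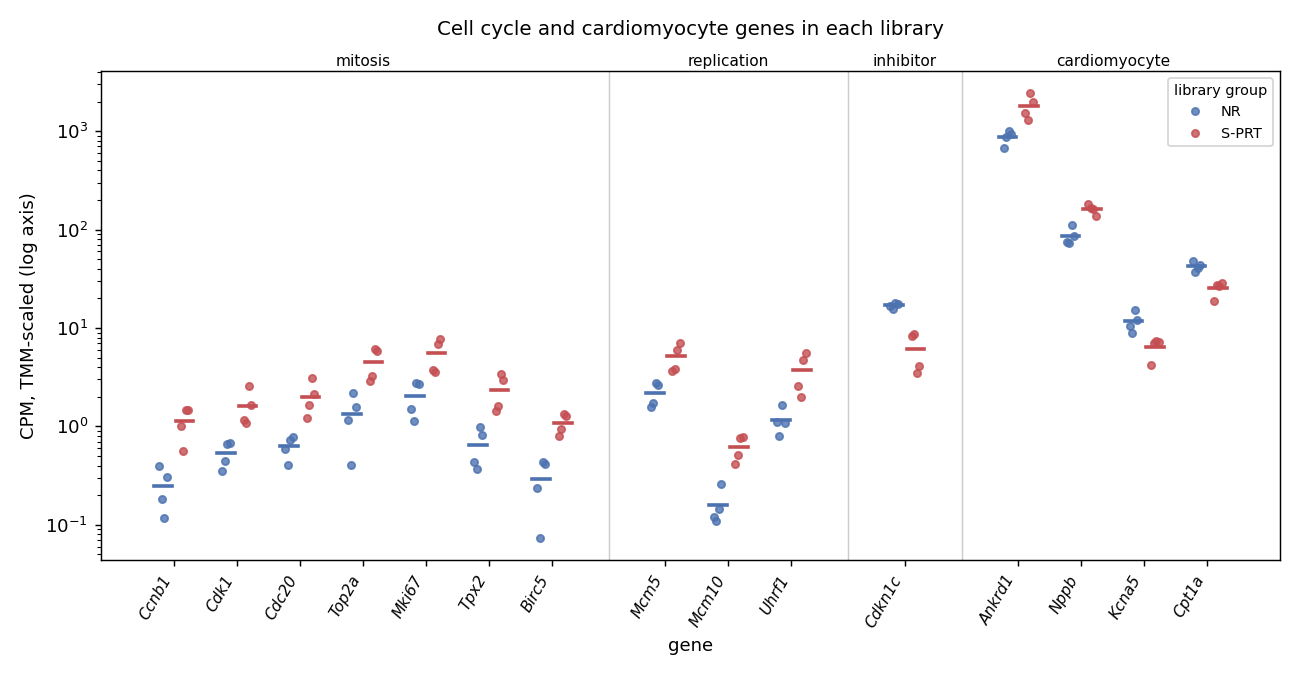
CPM after TMM scaling (y, log axis) of cell cycle and cardiomyocyte genes (x) in the 4 NR and 4 S-PRT libraries, with each library as a point and group means as bars. The mitosis genes lie under 10 CPM and are higher in S-PRT, Cdkn1c is lower in S-PRT, and Ankrd1 goes from a mean of 871 to 1807 CPM.

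Of 28 genes of fatty acid oxidation 1 fell, Cpt1a, with a list median of -0.18. Against 1.59% of all genes tested (3.33% in the paired fit), 1 call in such a list says little about the list. Cpt1a, a carnitine acyltransferase that admits fatty acids to mitochondria, had 47.7, 36.9, 41.0 and 43.8 CPM in NR and 18.7, 27.2, 26.9 and 28.9 CPM in S-PRT (-0.73 ± 0.13, adjusted p = 0.017). Lipe, the hormone-sensitive lipase, had 32.1 to 34.4 CPM in NR and 17.3 to 21.6 CPM in S-PRT (-0.73 ± 0.07, adjusted p = 0.0025). Lipe stands in a list of 4 adipocyte markers, of which 1 rose and 1 fell. Ppara, the nuclear receptor that induces genes of fatty acid oxidation, fell by 0.54 ± 0.1 on the log2 scale (adjusted p = 0.023). It was 1 of 16 metabolic nuclear receptors and coactivators, the only one called, and kept its call in 4 of the 8 fits with 1 library left out. None of Cpt1a, Lipe and Ppara overlapped between groups, and all passed with the length trend removed. Of the fatty acid oxidation genes 5 fell in the paired fit, and 6 with the length trend removed in it. The call of Cpt1a was lost without NR 1 or NR 4, and 5 members fell without S-PRT 2. Of 22 cholesterol synthesis genes and of 24 genes of glycolysis and glucose uptake 0 changed (0 of 22, and 1 higher and 2 lower of 24, in the paired fit), with medians of -0.02 and 0.08.

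A few immediate early and heat shock genes rose. Egr1, an immediate early transcription factor, had 3.6, 3.48, 5.42 and 8.08 CPM in NR and 16.1, 9.87, 15.8 and 24.7 CPM in S-PRT (1.67 ± 0.31, adjusted p = 0.019). With Egr3 (2.26 ± 0.46, adjusted p = 0.027) and the cytokine signalling inhibitor Socs3 (0.94 ± 0.2, adjusted p = 0.033) it was 1 of 3 that rose among 20 immediate early genes, of which 0 fell (9 and 1 in the paired fit). Egr3 had a mean of 0.224 CPM in NR, so its fold change rests on few reads. Fos overlapped between groups, with 0.293 to 3.14 CPM in NR and 1.83 to 12.7 CPM in S-PRT, and passed in the paired fit only (2.61, adjusted p = 0.0017). The immediate early count was 0 without NR 1, NR 3 or S-PRT 3, 1 without NR 2 or NR 4, and 7 without S-PRT 2. Of 17 cytosolic heat shock genes 4 rose and 0 fell (6 and 0 in the paired fit). They were Hspb8, a small chaperone of muscle (0.4 ± 0.07, adjusted p = 0.013), the co-chaperone Dnaja1 (0.4 ± 0.07, adjusted p = 0.02), Hsp90aa1 (0.49 ± 0.11, adjusted p = 0.043) and Hspa1a, the inducible 70 kDa protein (1.72 ± 0.39, adjusted p = 0.038). Reads of the last 3 were shared with other genes in all 8 libraries. The heat shock count was 0 without NR 1, 1 without NR 3, NR 4 or S-PRT 3, 2 without NR 2 and 7 without S-PRT 4. It was 2 without the length trend, with adjusted p of 0.055 for Hsp90aa1 and 0.051 for Hspa1a.

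Of 24 iron and haem genes 2 rose and 3 fell (3 and 4 in the paired fit), and without the length trend 0 rose and 1 fell. Among all genes tested 2.37% rose and 1.59% fell (6.42% and 3.33% in the paired fit). Hmox1, which breaks down haem, had 3.8, 3.85, 5.83 and 5.97 CPM in NR and 7.69, 7.62, 12.2 and 12.2 CPM in S-PRT (1.03 ± 0.21, adjusted p = 0.03, and 0.059 without the length trend), and the ferritin light chain gene Ftl1 rose by 0.52 ± 0.12 (adjusted p = 0.045, and 0.2 without the length trend). Slc40a1, the iron exporter ferroportin, had 21.3 to 24.9 CPM in NR and 17.3 to 19.6 CPM in S-PRT (-0.34 ± 0.07, adjusted p = 0.034, and 0.095 without the length trend). The 3 that fell include Cd163. The higher count was 0 without any 1 NR library or without S-PRT 3, and the lower count was 1 in 6 of the 8 fits with 1 library left out, all but those without NR 2 or S-PRT 4. Among 27 genes of the Ahr receptor, cytochrome and glutathione transferase list 4 fell and 0 rose (4 and 1 in the paired fit). Ahr itself, a receptor for aromatic compounds, had 3.72, 5.06, 5.22 and 5.03 CPM in NR and 1.92, 3.2, 2.33 and 1.92 CPM in S-PRT (-1.04 ± 0.19, adjusted p = 0.017). The oxidative enzymes Cyp2d22 (-1.04 ± 0.16, adjusted p = 0.011), Fmo1 (-0.62 ± 0.1, adjusted p = 0.013) and Fmo2 (-0.66 ± 0.12, adjusted p = 0.021) were the others, and their groups did not overlap. That count was 2 without NR 3, NR 4 or S-PRT 3 and 4 in the other 5 fits. It was 3 without the length trend, with adjusted p of 0.052 for Ahr and 0.054 for Fmo2.

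Matrix genes showed few calls, where 2.37% of all genes tested rose and 1.59% fell (6.42% and 3.33% in the paired fit). Of 31 collagen genes 0 changed, with a median of 0.07 (1 rose and 1 fell in the paired fit). Col1a1 had 66.5, 33.3, 94.9 and 104 CPM in NR and 58.9, 64.1, 128 and 97.8 CPM in S-PRT (0.22 ± 0.33, adjusted p = 0.73). Col3a1 changed by 0.43 ± 0.32 (adjusted p = 0.45). Postn, the periostin of activated fibroblasts, had 12.7, 9.09, 17 and 19.6 CPM in NR and 16.0, 17, 65.2 and 37.1 CPM in S-PRT. S-PRT 3 and 4 were above all others, and Postn passed in the paired fit only (1.05, adjusted p = 0.016, against 0.12). Sparc, a collagen-binding matricellular protein, likewise passed in the paired fit only (0.72, adjusted p = 0.0026, against 0.081). Of 33 matricellular and elastic fibre genes 0 rose and 1 fell without the block, and 7 rose and 4 fell in the paired fit. The 1 that fell was Thbs2, thrombospondin 2, which restrains vessel growth, with 18.9, 11.8, 25.6 and 25.1 CPM in NR and 8.44, 9.64, 10.2 and 12.1 CPM in S-PRT (-1.01 ± 0.22, adjusted p = 0.033, and 0.075 without the length trend). Without NR 2 the list had 5 that fell, and Thbs2 passed in 2 of the 8 fits with 1 library left out.

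NR 2 was also the lowest NR library for Pdgfra and Scara5, the 2 genes that fell among 19 of fibroblast identity, of which 0 rose (4 and 1 in the paired fit). Pdgfra, the growth factor receptor of fibroblasts, had 23.3, 12.1, 22.9 and 26.7 CPM in NR and 10.8, 12.4, 12.6 and 11.9 CPM in S-PRT (-0.84 ± 0.2, adjusted p = 0.045). Scara5, a scavenger receptor for ferritin, had 21.3, 10.8, 23.7 and 23.3 CPM in NR and 9.54 to 11.2 CPM in S-PRT (-0.94 ± 0.21, adjusted p = 0.035). NR 2 overlapped S-PRT in Thbs2, Pdgfra and Scara5. The count for the fibroblast list was 9 without NR 2, 1 without S-PRT 4 and 0 without any other 1 library. It was also 0 without the length trend, with adjusted p of 0.11 for Pdgfra and 0.071 for Scara5. Of secreted proteins, Spock2, a proteoglycan, fell with no overlap, with 3.89 to 5.86 CPM in NR and 1.66 to 1.9 CPM in S-PRT (-1.41 ± 0.15, adjusted p = 0.0025), as did the protease Mmp28 (-1.07 ± 0.21, adjusted p = 0.024). The lubricating proteoglycan Prg4 fell by 1.06 ± 0.24 on the log2 scale (adjusted p = 0.041, and 0.069 without the length trend). Reads of Mmp28 were shared with other genes in all 8 libraries and those of Prg4 in 7.

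**Figure D5:**
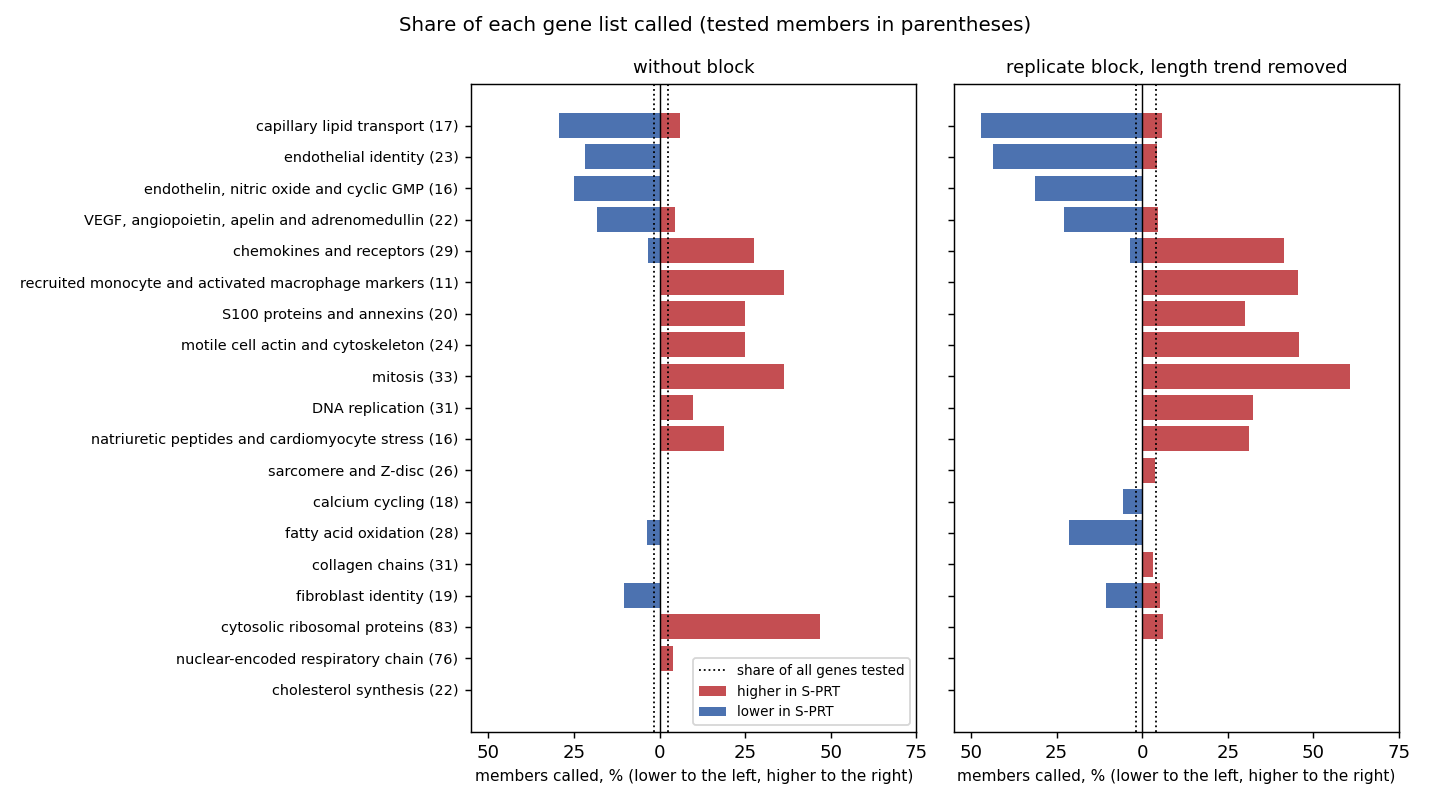
Percent of the tested members of 19 gene lists (rows) that were called lower (left of 0) or higher (right of 0) in S-PRT, without the block (left panel) and with the block and the length trend removed (right panel). Dotted lines mark the share of all genes tested, 2.37% higher and 1.59% lower on the left and 4.1% and 1.93% on the right. The panels differ in both the block and the length trend. The bar of the ribosomal proteins goes from 39 of 83 to 5 of 83, while those of the capillary, endothelial and mitosis lists are longer on the right. With the trend removed but no block, these lists had fewer calls than on the left. The mitosis list went from 12 to 5 higher, and the capillary and endothelial lists each from 5 to 4 lower.

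The list with most calls was that of the cytosolic ribosomal proteins, and it followed the length trend. Of 83 members 39 rose and 0 fell (55 and 0 in the paired fit), with a median of 0.32. In 60 of the 83 every S-PRT library was above every NR library, against 7.36% of all genes tested. Without the length trend the median was 0.06 and 2 rose, and with the trend removed in the paired fit 5 rose. Rps29, a subunit protein of the small ribosome, had 118, 111, 99.4 and 89.9 CPM in NR and 212, 157, 178 and 163 CPM in S-PRT (0.76 ± 0.11, adjusted p = 0.0093). It kept a log2 fold change of 0.39 without the trend (adjusted p = 0.04). Rps27l, a ribosomal protein that is also a p53 target, had 34.1 to 39.1 CPM in NR and 53.4 to 67.0 CPM in S-PRT (0.76 ± 0.08, adjusted p = 0.0025, and 0.44 with adjusted p = 0.012 without the trend). Rpl22l1 (0.84 ± 0.2, adjusted p = 0.043) and Rpl39 (0.77 ± 0.14, adjusted p = 0.019) had adjusted p of 0.094 and 0.059 without the trend. With 1 library left out the count ranged from 11 (NR 3 or S-PRT 3) to 53 (S-PRT 4), with 13 (NR 4), 14 (NR 1), 19 (S-PRT 1), 23 (NR 2) and 26 (S-PRT 2) between. Respiratory chain genes encoded in the nucleus (3 of 76 rose, 21 with 1 lower in the paired fit) and mitochondrial ribosomal proteins (5 of 78, 13 in the paired fit) went from medians of 0.2 and 0.17 to -0.06 and 0.02 without the trend, and 0 of either list then passed. Without S-PRT 4 these counts were 14 and 23, and without any other 1 library 0 or 1 and 1 or 2. For all genes tested with no library left out, 2.37% rose (6.42% in the paired fit). Cox8b, a small subunit of cytochrome oxidase, had 223 to 263 CPM in NR and 288 to 377 CPM in S-PRT (0.39 ± 0.09, adjusted p = 0.047), and -0.01 without the trend (adjusted p = 0.95).

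Several genes outside the pathways above changed more than most. Bc1 is a short RNA made by RNA polymerase III, known from neurons, with a central run of A. It lies at chr7:144914470-144914637 on the plus strand of GRCm38 (GENCODE M21) and is shown whole because the libraries were made by selection on poly(A), and it is 168 bases long with an internal run of 23 A. The longest run of A is in capitals and begins at base 77.
Bc1: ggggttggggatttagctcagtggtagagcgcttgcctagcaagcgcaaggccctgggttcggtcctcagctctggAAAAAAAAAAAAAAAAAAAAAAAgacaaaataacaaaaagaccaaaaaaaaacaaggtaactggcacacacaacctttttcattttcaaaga
Bc1 had 5.81, 4.11, 5.4 and 4.66 CPM in NR and 35.6, 28.3, 24.9 and 14.6 CPM in S-PRT. The groups did not overlap, and among the S-PRT libraries those with the lower length correlation had more Bc1. The part of length or of the A run in this difference was not tested. The log2 fold change was 2.37 ± 0.24 (adjusted p = 0.0025), and 1.76 (adjusted p = 0.0035) without the length trend. It passed with any 1 library left out.

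Pcdhgc4, a clustered protocadherin, had 0.435, 0.433, 1.56 and 0.748 CPM in NR and 9.24, 7.99, 5.88 and 3.8 CPM in S-PRT (3.02 ± 0.4, adjusted p = 0.0065). Members of that cluster share exons, and reads of Pcdhgc4 were shared with other genes in 7 libraries, so this value is uncertain. Rgs16, a regulator of G protein signalling, had 0.464 to 0.781 CPM in NR and 1.42, 1.22, 5.74 and 5.62 CPM in S-PRT (2.48 ± 0.52, adjusted p = 0.03). Cdh23, a cadherin known from hair cells, had 3.23 to 4.06 CPM in NR and 1.03 to 1.34 CPM in S-PRT (-1.65 ± 0.16, adjusted p = 0.0025). Adh1, an alcohol dehydrogenase that also oxidizes retinol, had 6.53, 6.08, 8.04 and 6.92 CPM in NR and 4.09, 3.24, 2.03 and 1.78 CPM in S-PRT (-1.34 ± 0.24, adjusted p = 0.017). The lipid transporters Abca4 (-1.36 ± 0.29, adjusted p = 0.031) and Abca6 (-0.88 ± 0.16, adjusted p = 0.017) fell among 32 transporter genes, of which 3 fell and 0 rose (6 and 1 in the paired fit). The lower count was 1 without the length trend, and Abca4 had an adjusted p of 0.06. The count for transporters was 0 without NR 1, NR 4 or S-PRT 3, 2 without NR 3, S-PRT 1 or S-PRT 2, and 5 without S-PRT 4. In Adh1, as in Timp4, Timd4 and Cdkn1c, S-PRT 3 and 4 were the lowest libraries, and in Rgs16, as in Apln and Prnd, they were the highest.

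The deposited gene length is an average over transcripts weighted by their estimated abundance, so a change in it reflects another mix of transcripts. Of 7867 genes tested with limma on log2 length 0 became longer and 2, Sap18 and Tsc22d4, became shorter in S-PRT (383 and 394 at an unadjusted p under 0.05). In the paired fit 0 became longer and 0 shorter (346 and 378 at an unadjusted p under 0.05).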

How the data were processed

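Poly(A) RNA of mouse heart apex was sequenced as bulk libraries. Per the submitters' processing notes, the tools were FastQC, cutadapt, STAR, RSEM and edgeR, and GRCm39 and mm10 are both named as builds. Versions are not given in the sources used here, and neither is the use of strand in counting, which leaves genes that overlap or have an antisense partner uncertain. The authors deposited RSEM expected counts, TPM and an abundance-weighted gene length per library. Of 55414 gene IDs 52081 had a symbol.

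Expected counts of the 4 NR and 4 S-PRT libraries were rounded, filtered with edgeR's filterByExpr (14069 genes), scaled by TMM and tested with edgeR 4.0.16 (quasi-likelihood, group only) in R 4.3.3. The length trend was removed as a per-library offset from a lowess fit (span 0.3). Weighted length was tested with limma 3.58.1. Genes whose expected counts were not whole shared reads with other genes. Precision is set by 4 libraries a group, and depth by 23655699 to 40136578 counts. On simulated data for this comparison (13905 genes), the test recovered 43.1%, 75.4% and 97% of genes changed 1.5-, 2- and 4-fold, with 5.37% false calls, and with the replicate block 32.3%, 73.8% and 95.5%, with 8.33% false calls. The simulated counts held no length trend and no pattern shared by replicates, unlike the real libraries. These rates therefore cannot be carried over to the calls above.

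Deviations from the group means of same-numbered NR and S-PRT libraries correlated at 0.279, 0.28, 0.362 and 0.183 over 11063 genes. The paired fit was made on that ground, and its pairing comes from the data and not from a label. NR 2 with S-PRT 1 (0.457) and NR 3 with S-PRT 4 (0.364) correlated more than their own numbers did, and NR 4 with S-PRT 3 stood at 0.358. The correlations set libraries 1 and 2 apart from 3 and 4, and do not show that equal numbers belong together.

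The comparison's members and the 82 gene lists were chosen with earlier results of these data known. Named genes were the 15 largest increases and decreases of each fit above a mean log2 CPM of 1 (without predicted, p53 and interferon genes), up to 5 called members of each list, and a fixed set of genes. Cd36, S1pr1, Sox17, Sox18, Gucy1b1, Aplnr, Ccl12, Ccl11, Ccl6, Cxcl10, Birc5, Rpl39, Rpl22l1, Gm10800 and Gm29216 were chosen after their values were seen. Alternatives were DESeq2 1.42.0, other scalings and filters, limma on log2(TPM + 1) and log2(TPM + 0.1), blocks, all 11 libraries, and each library left out. Promoters came from RefSeq (GRCm38.p6). A few genes of the lists are counted but not reported here by name.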

Additional observations from a re-analysis of the deposited data

Results flagged for a closer look

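Of 274 groups of 4 libraries checked, 15 held a library far from the other 3, with a gap above Dixon's 95% critical value; chance flags about 1 in 20 groups. In S-PRT the highest library stood apart for Adra1a (11.1 CPM, next 9.86), Aqp7 (6.35, next 3.87), Ccl6 (19.0, next 10.6), Npr3 (7.98, next 4.33), Ppara (14.4, next 11.6) and Tek (20, next 16.0), and the lowest for Kcna5 (4.22 CPM, next 6.96). In NR the highest stood apart for Gm10800 (0.752 CPM, next 0.203), Notch1 (21.8, next 19.9), Ppara (20.7, next 17.2), Prg4 (6.21, next 3.81) and Ptprb (67.8, next 60.7), and the lowest for Ahr (3.72 CPM, next 5.03), Egr3 (0.119, next 0.257) and S100a10 (10.2, next 12.1).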

How the results depend on the processing

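Against 334 higher and 223 lower genes, the counts were 762 and 474 with DESeq2's test, 127 and 61 with all 11 libraries fitted, 115 and 85 without the length trend, 54 and 80 with library size only, 25 and 28 on log2(TPM + 0.1), 18 and 26 on log2(TPM + 1), 635 and 358 with no filter, 864 and 724 with replicates 1 and 2 only, and 899 and 439 with replicates 3 and 4 only. With the replicate block they were 903 and 468, with the block and the length trend removed 577 and 272, and with a block of replicates 1 and 2 against 3 and 4 they were 1319 and 857. On log2(TPM + 1) rescaled with TMM factors, chosen after seeing the data, they were 125 and 66. Leaving out 1 library gave 86 to 502 higher and 53 to 385 lower, and leaving out 1 pair with the replicate block 279 to 874 and 104 to 585 (619, 642, 279 and 874 higher and 154, 351, 104 and 585 lower without pairs 1 to 4). DESeq2's size factors, a stricter filter, leaving out mitochondrially encoded genes and limma on log2 CPM (the last chosen after seeing the data) stayed within 1.5 times. The count of genes with a shorter weighted length was 0 with the replicate block and with at least 20 counts, and 0 to 2 with 1 library left out, against 2. On log2(TPM + 1) 0 genes of the mitosis, DNA replication, ribosomal protein and endothelin lists passed. The endothelial list then had 1 lower, the capillary list 4 lower, the chemokine list 1 higher and 1 lower, and the recruited monocyte list 2 higher. Adding 1 shrinks the fold changes of genes at low TPM, and its part in these shifts, like any other cause, was not tested.

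Of 106 named genes called, 106 kept the call with the replicate block, 101 with the block and the length trend removed, 61 with the trend removed, 58 with all 11 libraries, 52 with library size only, 26 on log2(TPM + 0.1) and 25 on log2(TPM + 1). With 1 library left out between 46 (NR 1 or S-PRT 3) and 95 (S-PRT 4) kept it. Signs turned for Cox8b (-0.01 without the length trend and with the block added), Ece1 (0.14 on rescaled TPM), Col1a1 (-0.02 without NR 2 or S-PRT 3, in a range from -0.02 to 0.43 with 1 library left out), Myh6 (0.01 without the length trend with or without the block, 0.14 on rescaled TPM), Nppa (-0.51, replicates 1 and 2 only), Vegfa (0.01, replicates 1 and 2 only) and Ryr2 (0.04 without the length trend with or without the block, 0.07 with replicates 3 and 4 only, 0.01 without NR 2). Pecam1, at 0.02, was -0.12 with library size, -0.20 and -0.19 on log2(TPM + 0.1) and log2(TPM + 1), -0.01 on rescaled TPM and in both block fits, -0.02 with limma on log2 CPM, -0.14 with replicates 1 and 2 only, -0.05, -0.06, -0.09 and -0.13 without NR 1, NR 2, S-PRT 3 and S-PRT 4 (up to 0.16 without S-PRT 1), and -0.01, -0.06 and -0.05 in the block without pairs 2, 3 and 4. Genes near 1 CPM rest on few reads, since 1 count is worth 0.022 to 0.047 CPM.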

Other observations

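Predicted genes were left out of the genes named above. Gm10800 had 0.752, 0.147, 0.203 and 0.174 CPM in NR and 9.09, 5.53, 17.8 and 26.4 CPM in S-PRT, with no overlap (5.66 ± 0.62, adjusted p = 0.0025 by edgeR's quasi-likelihood test). Its reads were shared with other genes in 4 libraries. Gm29216 had 36.8, 75.8, 24.5 and 31.3 CPM in NR and 1379, 1340, 312 and 72.8 CPM in S-PRT (4.21 ± 0.81, adjusted p = 0.023 by the same test). Its groups overlapped, because S-PRT 4 was below NR 2, and its reads were shared with other genes in all 8 libraries, so both values are uncertain.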
